A study of Mus musculus with 8 samples.

Results

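H3K9me3 ChIP-seq libraries made with the Upstate-type antibody were compared between day 2 (T=2d in the labels) and day 0 (T=0) in conditional Setdb1 ES cells, which are 2 of the 8 libraries of the series. The cells were JM8 mouse ES cells (C57BL/6N) in which 1 Setdb1 allele was already disrupted (tm2) and the other was conditional. Cells of day 0 were untreated. Cells of day 2 had received 0.8 μM 4′hydroxytamoxifen (4′OHT) for 48 h, which activates a Cre recombinase expressed from Rosa26 and turns the conditional allele into a null allele. The labels name these genotypes tm1a/tm2 and tm1c/tm2, while the study's text names them tm1c/tm2 and tm1d/tm2. The same antibody was also used at day 4 and day 6, after further culture without 4′OHT, and lots 58206 and 638466 of the Abcam antibody ab8898 were used at day 0 and day 6. Each antibody and time point has 1 library, so every test below compares libraries and not conditions, and no difference has a replicate check. Libraries of treated control cells were not analysed here, so loss of Setdb1, exposure to 4′OHT and time in culture cannot be told apart.

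Setdb1 is a histone methyltransferase that trimethylates lysine 9 of histone H3. It is brought to its targets largely by KRAB zinc finger proteins and their corepressor Trim28, and in ES cells it is known for silencing endogenous retroviruses and some genes. H3K9me3 is also laid down by Suv39h1 and Suv39h2, chiefly at pericentric repeats, where HP1 proteins bind the mark. The mark is diluted at each round of DNA replication and removed by histone demethylases.

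The libraries of the Upstate-type antibody hold 6887819 tags each, of which between 97.4% and 97.6% lie on chromosomes 1 to 19 and were used. The authors brought the libraries of an antibody to 1 number of tags, so a value here is a share of a library, and a change of the total amount of H3K9me3 cannot be seen. Tags were counted by the midpoint of their 300-bp interval in 494473 windows of 5 kb, in mm9 coordinates. Regions are given by position alone, since gene positions in this build were not used here. The median window held 9 tags at day 0, 8 at day 2, 10 at day 4 and 9 at day 6. The library of lot 58206 at day 6 stood apart from its day 0 library. Windows with at least 3 times the library's own median took 11.1% of its tags at day 6 and 3.98% at day 0, whereas these shares were 0.236% and 0.610% for lot 638466.

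The tags of the Upstate-type antibody were more concentrated at day 2 than at the other time points. Windows at 3 or more times the library's own median held 36.2% of tags at day 0, 43.6% at day 2, 35.4% at day 4 and 35.6% at day 6. At a fixed limit of 27 tags, a limit chosen after the data were seen, the shares were 38.5%, 43.6%, 37.1% and 37.6%. Windows with 100 or more tags numbered 4062 at day 0, 7009 at day 2, 5079 at day 4 and 3721 at day 6. Day 2 was thus the highest of the 4 libraries on each of these measures, and the day 0 and day 6 libraries lay close together.

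Windows were tested where both libraries together held at least 20 tags, which left 210213 windows, or 42.5% of all. A window was called where its tags, set against those elsewhere in both libraries, gave P below 0.01 in Fisher's exact test (two-sided) and the change was over 1.5-fold. Of the tested windows, 2765 were lower at day 2 (1.32%) and 4119 were higher (1.96%). At P below 0.01, counting error alone can call up to 0.01 of the tested windows, with both directions together. By fold alone, with no test, 18.5% of windows were lower and 13.5% higher. With a P adjusted over all tested windows by Benjamini-Hochberg to below 0.05, 457 windows were lower and 1228 higher. When the smaller tail of Fisher's test was doubled, an alternative added after the data were seen, the count of lower windows was 2765 and that of higher windows 3579. The two-sided P used here is not symmetric at low counts and thus favoured higher calls. All counts of higher windows given here carry this, unless the doubled tail is named. Changes over 4-fold were found in 699 lower and 305 higher windows. Of these, 400 lower and 207 higher windows stood below 1.5 times the median with all antibodies, where tested windows lie near the limit of 20 tags.

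The split between lower and higher calls depended on the scaling. Windows below 1.5 times the median with all antibodies, here called background windows, held 7.66 tags on average at day 0 and 7.01 at day 2, a ratio of 0.915. Scaling to those windows raises every ratio by 0.13 on the log2 scale. It left 1885 windows lower and 7240 higher, so that 79.3% of calls were higher, against 59.8% with scaling to all tags. This scaling was added after the data were seen, and its windows were chosen in part by the tags compared. Scaling to windows below 1.5 times the Abcam median, whatever their Upstate-type level, moved the split the other way. It left 3725 windows lower and 3448 higher, so that 48.1% of calls were higher. Ratios between 0.915 and 1 below turn above 1 under scaling to background windows.

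Windows were grouped by their tags with the Abcam antibody at day 0, summed over both lots and divided by the median, which takes no value from the compared libraries. The share of tested windows lower at day 2 was 0.288% below 0.5 times the Abcam median and 0.510% between 0.75 and 1 times. It was 2.44% between 1.5 and 2 times, 7.45% between 2 and 3 times, 23.0% between 3 and 5 times and 32.6% between 5 and 10 times. The share of higher windows lay between 1.63% and 2.39% in every class up to 3 times the median, and was 5.99% between 3 and 5 times. In the 34 windows at 10 or more times the median, 4 were lower and 0 were higher, which is 11.8% with an exact binomial 95% interval of 3.30% to 27.5%. Lower calls thus became more frequent with the Abcam level up to 10 times the median, while higher calls stayed within 1 narrow range up to 3 times the median. Shares of calls, here and by the Upstate-type level below, also grow with the tags a window holds. Windows averaged 20.5 Upstate-type tags at day 0 between 1.5 and 2 times the Abcam median, and 135 between 5 and 10 times. The summed ratios of the 4 classes from 1.5 to 10 times were 0.959, 0.941, 0.902 and 0.806.

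**Figure D1:**
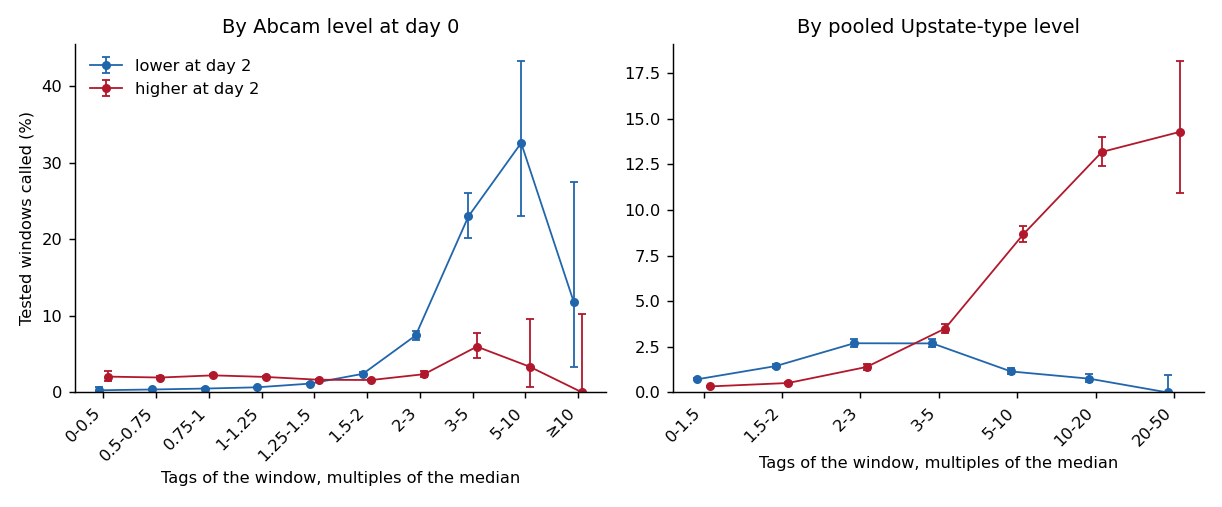
Share of tested 5-kb windows called lower (blue) or higher (red) at day 2, in percent, by the level of the window in multiples of the median. The left panel uses the pooled day 0 tags of the 2 Abcam lots and the right panel the pooled day 0 and day 2 tags of the Upstate-type antibody, points are shares with exact binomial 95% intervals, and classes with fewer than 30 tested windows are not drawn. Lower calls climb with the Abcam level to 32.6%, and higher calls climb with the Upstate-type level to 14.3%. Windows of these classes also hold more tags, which makes a call easier to reach.

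At 3 or more times the Abcam median there were 992 windows, here called Abcam-enriched, of which 958 were tested. Among these, 225 were lower (23.5%, 20.8% to 26.3%) and 53 were higher (5.53%, 4.17% to 7.17%). They averaged 79.9 tags at day 0, 71.3 at day 2, 52.4 at day 4 and 44.6 at day 6 with the Upstate-type antibody. The summed tags at day 2 were 0.893 times those at day 0 (0.884 to 0.902), and 0.976 times under scaling to background windows. These intervals, as all others given here for tags, cover counting error only. Day 2 lay between day 0 and the later libraries, and nearer to day 0.

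The 2 Abcam lots marked sets of windows of different size, whose overlap was not counted. With lot 638466 alone, 554 tested windows stood at 3 or more times its median, of which 195 were lower (35.2%) and 4 higher, with a ratio of 0.779. With lot 58206 alone there were 4029, of which 307 were lower (7.62%) and 179 higher (4.44%), with a ratio of 1.01 (0.999 to 1.01). The ratio was thus below 1 for windows chosen with lot 638466 and at 1 within its interval for those chosen with lot 58206.

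A second division used the level with the Upstate-type antibody itself, as the pooled tags of day 0 and day 2, to which both libraries contribute alike. These are also the tags compared, and day 2 was the more concentrated library, so the high classes can lean to day 2. The share of higher windows was 0.332% below 1.5 times the median, 1.40% between 2 and 3 times, 3.50% between 3 and 5 times, 8.68% between 5 and 10 times, 13.2% between 10 and 20 times and 14.3% between 20 and 50 times. The share of lower windows was 0.723% below 1.5 times, 2.70% between 2 and 3 times, 2.69% between 3 and 5 times and 0.756% between 10 and 20 times. The ratio of summed tags went from 0.908 in the lowest class to 1.253 in the class of 20 to 50 times. In the 8 windows at 50 or more times the median it was 0.981 (0.944 to 1.02), with 1 window lower and 0 higher. Windows between 3 and 50 times the median thus took a larger share of the day 2 library, and those below 3 times a smaller share.

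The 2 divisions together gave classes in which either lower or higher calls prevailed. They did not separate the calls as a whole, since 1247 of the 2765 lower and 3397 of the 4119 higher windows stood below 1.5 times the Abcam median. At 3 or more times the Upstate-type median but below 1.5 times the Abcam median there were 34068 windows, here called Upstate-only. Of these, 117 were lower (0.343%) and 2635 higher (7.73%). They averaged 55.0 tags at day 0, 64.8 at day 2, 57.3 at day 4 and 55.2 at day 6, a day 2 to day 0 ratio of 1.178 (1.176 to 1.181). With the level taken from day 4 and day 6 instead, an alternative added after the data were seen, the ratio was 1.19, with 57 windows lower and 2596 higher. Day 2 was the highest of the 4 libraries, and day 0 and day 6 were nearly level.

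At a like Upstate-type level (3 to 10 times) and at 3 or more times the Abcam median, 170 of 545 windows were lower (31.2%) and 31 higher (5.69%). These windows averaged 58.1 tags at day 0, 46.0 at day 2, 29.8 at day 4 and 25.02 at day 6, and the ratio of 0.794 (0.781 to 0.807) stayed below 1 under scaling to background windows. In the 93 windows at 10 or more times the Upstate-type median and 5 or more times the Abcam median, 27 were lower (29.0%) and 2 higher. Among windows with the strongest Upstate-type level (10 or more times), the share of lower windows was 0.0365% where the Abcam level was below 1.5 times the median, 0.543% where it was 2 to 3 times, and 11.4% where it was 3 to 5 times. The ratios of these 3 classes were 1.246, 1.21 and 1.04, and their shares of higher windows 14.1%, 13.3% and 10.2%. Between 3 and 10 times the Upstate-type median, the summed ratio thus lay on opposite sides of 1 by the Abcam level, while at 10 or more times it was above 1 up to 5 times the Abcam median.

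The later libraries of the same antibody, and the Abcam lots, were read in the windows called. Lower windows averaged 35.9 tags at day 0, 13.8 at day 2, 12.4 at day 4 and 11.9 at day 6, and higher windows 45.5, 82.4, 67.9 and 57.4. The day 0 and day 2 values were used in the calls and are a description, and all later values share the day 0 library. In the lower windows, the day 6 to day 0 ratio was 0.570 (0.563 to 0.576) with lot 58206 and 0.600 (0.595 to 0.606) with lot 638466. In all tested windows these ratios were 0.947 and 0.938, and in the higher windows 1.001 and 0.957. Windows lower at day 2 were thus also lower at day 6 with both Abcam lots, whose libraries took no part in the calls. In all windows at 2 or more times the Abcam median, a choice that uses the same day 0 tags, the ratios were 1.12 with lot 58206 and 0.635 with lot 638466. With lot 638466, lower windows were therefore close to windows chosen by Abcam level alone. In all windows at 3 or more times the Upstate-type median, the ratios were 0.855 with lot 58206 and 0.821 with lot 638466. The higher windows thus had no matching rise over day 0 with the Abcam lots, but their ratios lay above those of windows chosen by Upstate-type level. No Abcam library of day 2 was analysed here.

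Of the lower windows, 28.4% stood at 2 or more times the Abcam median and 28.9% at 3 or more times the Upstate-type median. Of the higher windows, 5.66% stood at 2 or more times the Abcam median and 78.5% at 3 or more times the Upstate-type median. Over all tested windows, these shares were 4.04% and 21.6%.

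Lower and higher calls differed in the width of the regions they formed. Called windows of the same direction were joined where at most 1 window lay between them, which gave 2556 lower and 3007 higher regions. Single windows made up 93.5% of lower regions and 80.3% of higher regions. Regions of 4 or more windows numbered 16 among the lower and 166 among the higher, and held 2.28% of lower and 19.3% of higher windows. Regions of 8 or more windows numbered 0 and 33. The widest lower region spanned 35 kb and the widest higher region 90 kb. The median pooled Upstate-type level was 2.06 times the median in lower windows and 6.44 times in higher windows. A call is easier to reach where windows hold more tags, so neighbouring windows can be called together more readily among the higher. Calls made by counting error alone can also stand as single windows. An adjusted P below 0.05 was reached by 457 of the 2765 lower and 1228 of the 4119 higher windows. The widths of called regions were not compared at equal level. How much of the difference comes from the level or from counting error was not tested.

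Domains were also defined without the calls, as runs of neighbouring windows at 3 or more times the pooled Upstate-type median. There were 12426 of them. The limit used the tags of both compared libraries, of which day 2 was the more concentrated. Runs of high tags can therefore lean to day 2 by construction, and the ratios by width are a description. Domains of 1 window (5043 of them) had a day 2 to day 0 ratio of 0.943 (0.937 to 0.949), which became 1.03 under scaling to background windows. The ratio was 1.06 for domains of 10 kb, 1.12 for 15 to 20 kb, 1.16 for 25 to 45 kb, 1.19 for 50 to 95 kb and 1.20 for the 145 domains of 100 kb or more. More tags at day 2 than at day 0 were found in 43.0% of domains of 1 window and 93.1% of those of 100 kb or more. The ratio thus rose with width up to 50 kb, and the intervals of the 2 widest classes overlapped.

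Narrow domains differed by their Abcam level. The 987 domains of 1 window at 2 or more times the Abcam median had a ratio of 0.735 (0.725 to 0.745), and the 2802 below 1.5 times had a ratio of 1.07 (1.06 to 1.08). For domains of 10 kb the ratios were 0.897 and 1.11, the first of which stayed below 1 under scaling to background windows, and for domains of 15 to 20 kb 0.975, which turns above 1 under that scaling, and 1.13. At 25 to 45 kb the 55 domains with the higher Abcam level had a ratio of 1.04 (1.03 to 1.06). Falls were thus found in narrow domains that the Abcam antibody also marked.

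**Figure D2:**
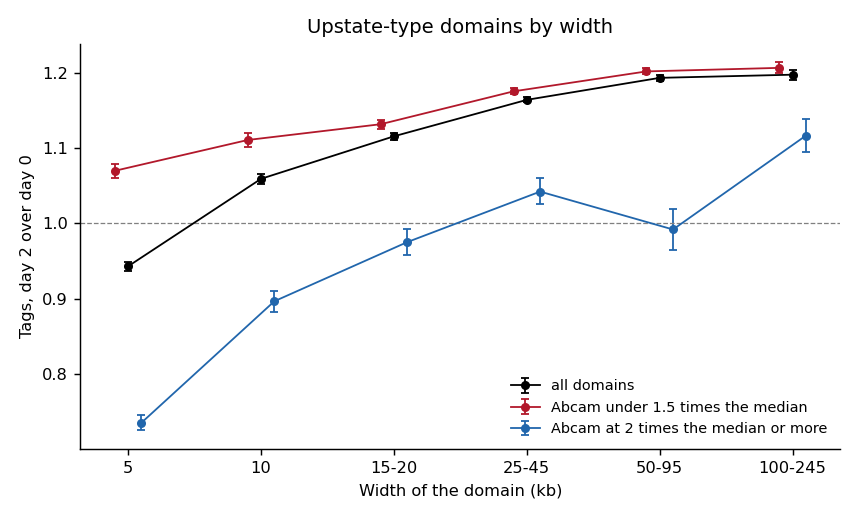
Ratio of summed tags of the Upstate-type antibody at day 2 over day 0, by the width of the domain in kb, for all domains (black) and for those below 1.5 times (red) or at 2 or more times (blue) the Abcam median. Points are ratios scaled to all tags with 95% counting intervals, and the dashed line marks no change. The blue line starts at 0.735 for single windows and the black line climbs from 0.943 to 1.20.

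Since wide domains also hold more tags per window, width was read again at equal level. Among Upstate-only windows between 5 and 10 times the median, the ratio was 1.12 (1.096 to 1.15) in domains of 1 window, 1.13 in those of 2 to 4 windows, 1.17 in those of 5 to 9 and 1.20 (1.19 to 1.20) in those of 10 or more. Between 3 and 5 times the median, the ratios were 1.06, 1.09, 1.12 and 1.14. Windows at 2 or more times the Abcam median went from 0.650 (0.639 to 0.662) in domains of 1 window to 1.04 (1.01 to 1.07) in those of 10 or more, between 3 and 5 times the Upstate-type median. Wider domains had the higher ratio in these 3 series. At 10 to 20 times the median, the ratio of windows at 2 or more times the Abcam median went down with width, at 1.16, 1.11, 1.07 and 1.04. That of Upstate-only windows rose with width from 1.20 to 1.23 and 1.26, past the 8 windows of single domains. Those 8 windows had a ratio of 1.29 (1.18 to 1.42), with an interval that covers the other values. The relation to width thus depended on the level in windows at 2 or more times the Abcam median.

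The 1064 domains of 50 kb or more had higher ratios inside their edges than outside them. The first 5 kb inside the edge averaged 47.4 tags at day 0 and 55.8 at day 2, a ratio of 1.18 (1.17 to 1.19), and the fifth window inside averaged 66.5 and 79.4, a ratio of 1.20. The window just outside averaged 16.1 at day 0 and 16.2 at day 2, a ratio of 1.01 (0.993 to 1.02), and all windows up to 50 kb outside had ratios between 0.980 and 1.02. Under scaling to background windows the first window inside had a ratio of 1.29 and the window just outside 1.101. The step in the ratio fell within 1 window of the edge. The edge was itself set by the pooled tags of the 2 compared libraries. Part of the step can therefore come from this definition, and how much was not tested.

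Abcam-enriched windows with no other such window within 25 kb numbered 633, of which 126 of the 604 tested were lower (20.9%) and 43 higher (7.12%). Their summed ratio was 0.943 (0.930 to 0.957), which turns above 1 under scaling to background windows. The ratio was lowest in the 2 kb around the centre, at 0.907 and 0.903, where the tags went from 12.5 and 13.2 per kb at day 0 to 11.3 and 11.9 at day 2. From 5 kb to 15 kb away the ratio lay between 1.03 and 1.13, and tags at day 0 between 6.27 and 8.06 per kb. With lot 638466 these isolated windows averaged 67.3 tags at day 0 and 34.6 at day 6, and with lot 58206 they averaged 82.6 and 87.9. The 359 Abcam-enriched windows that had another within 25 kb had a ratio of 0.847 (0.835 to 0.859), with 28.0% lower and 2.82% higher.

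**Figure D3:**
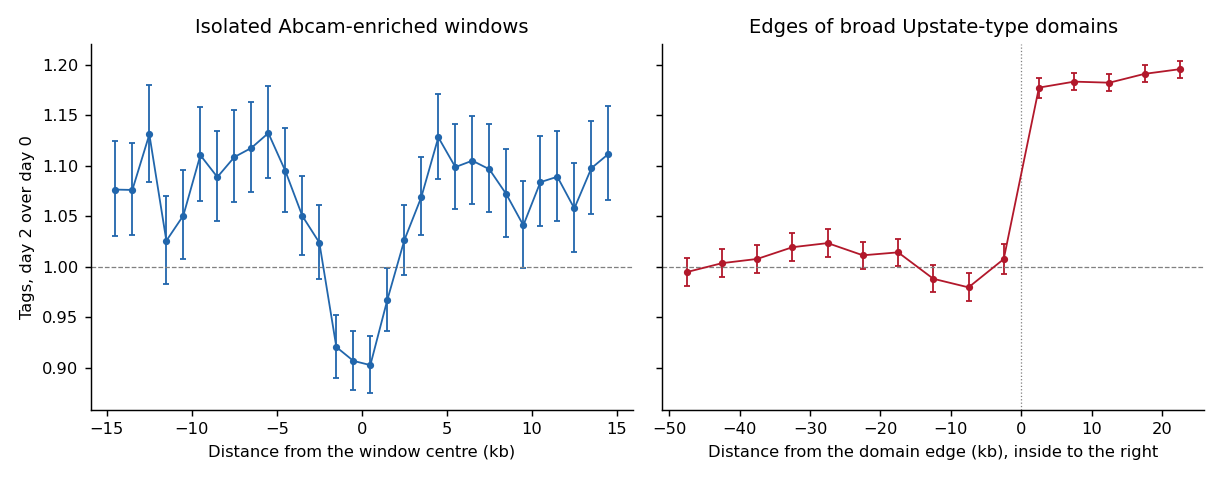
Ratio of tags of the Upstate-type antibody at day 2 over day 0. The left panel shows bins of 1 kb around the centres of 633 isolated Abcam-enriched windows, and the right panel windows of 5 kb on either side of the edges of 1064 domains of 50 kb or more, with distance in kb and 95% counting intervals. The left ratio dips to 0.903 at the centre, and the right ratio steps from 1.01 to 1.18 at the edge. The edges were set by the pooled tags of the same 2 libraries.

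The 10 lower and 10 higher regions with the smallest P, 5 of each with the largest fold and 3 of each of the widest were taken for a closer look, which gave 15 lower and 14 higher regions. They were chosen for their change between day 0 and day 2, so these values are a description. All 15 lower regions had fewer tags at day 6 than at day 0 with both Abcam lots, with median ratios of 0.321 and 0.273. Of the 14 higher regions, 11 had fewer tags at day 6 with lot 58206 and 5 with lot 638466. The Abcam level was 2 or more times the median in 14 of the 15 lower regions and in 0 of the 14 higher regions.

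The widest lower region, chr10:84510001-84545000, held 312 tags at day 0, 124 at day 2, 58 at day 4 and 56 at day 6. This is 8.91 tags per kb at day 0 and 3.54 at day 2, a ratio of 0.398 (0.320 to 0.491). The sequence on both sides, up to 100 kb from the centre, held 5.88 and 7.16 tags per kb, so that the region stood above its surroundings at day 0 and below them at day 2. Lot 58206 went from 313 tags at day 0 to 101 at day 6 there, and lot 638466 from 393 to 208. A second region on chromosome 10, chr10:82835001-82870000, also spanned 35 kb and went from 728 to 423, 360 and 227 tags.

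In 13 of the 15 lower regions the count at day 4 was below that at day 2, and this also held at day 6 in 13 of the 15. The region chr18:34240001-34255000 held 217 tags at day 0, 66 at day 2, 23 at day 4 and 19 at day 6. In chr9:121225001-121240000 the counts were 241, 95, 34 and 30. In chr16:22395001-22415000, by contrast, they were 830, 504, 338 and 202, and in chr4:155525001-155555000 they were 742, 425, 309 and 376. Day 2 was above both later libraries in all of these.

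The largest fold among lower regions was in chr3:102520001-102525000, with 59 tags at day 0, 8 at day 2, 13 at day 4 and 11 at day 6, a ratio of 0.136 (0.0560 to 0.285). Next was chr8:24670001-24675000, with 41, 6, 6 and 5 tags. These single windows were already at their later level at day 2, within counts this small. The lower region with the smallest P was chr17:39980001-39990000. It held 1003 tags at day 0, 436 at day 2, 96 at day 4 and 152 at day 6, and its Abcam level was 66.6 times the median. No start position is repeated in a library, which limits how many tags such a region can hold.

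The widest higher region, chr6:136470001-136560000, held 1170 tags at day 0, 2111 at day 2, 1880 at day 4 and 1614 at day 6. Inside it were 13.0 tags per kb at day 0 and 23.5 at day 2, and outside it, up to 100 kb from its centre, 4.15 and 2.31. A lower region, chr6:136415001-136435000, lay within this outer stretch and ended 35 kb before the higher region. It went from 190 tags at day 0 to 61 at day 2, 44 at day 4 and 32 at day 6, so the outer values include its fall. Opposite changes thus lay side by side in 1 stretch of chromosome 6. With lot 58206 the wide region held 376 tags at day 0 and 271 at day 6, and with lot 638466 it held 596 and 483.

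**Figure D4:**
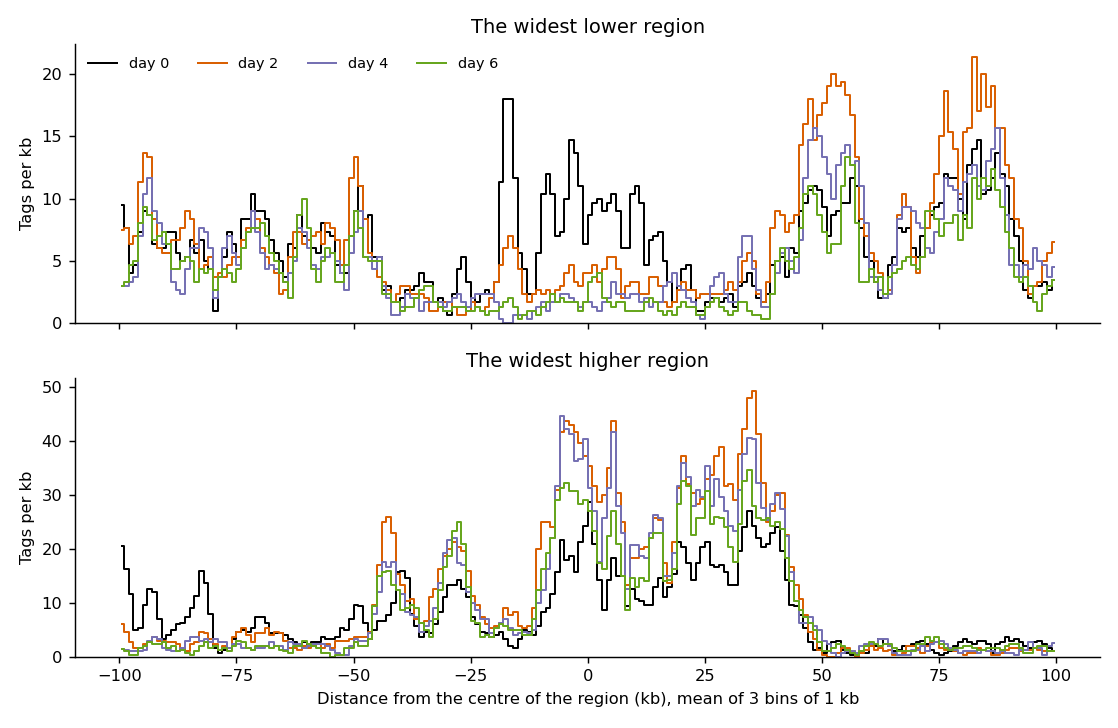
Tags per kb of the Upstate-type antibody at day 0, day 2, day 4 and day 6, as a mean of 3 bins of 1 kb, by distance in kb from the centre of the widest lower region (upper panel) and the widest higher region (lower panel). In the upper panel the 35 kb in the centre went from 8.91 tags per kb at day 0 to 3.54 at day 2, and in the lower panel the central 90 kb went from 13.0 to 23.5.

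Several higher regions began with fewer tags than most of the others. The region with the smallest P, chr18:21220001-21260000, held 141 tags at day 0, 646 at day 2, 656 at day 4 and 278 at day 6, a ratio of 4.59 (3.82 to 5.54). In chr6:146745001-146780000 the counts were 114, 568, 986 and 767, and in chr7:27450001-27485000 they were 199, 710, 1037 and 678. The count was highest at day 4 in all 3 and above day 0 in each later library. The largest fold was in chr2:4880001-4885000, with 5 tags at day 0, 58 at day 2, 129 at day 4 and 75 at day 6, a ratio of 11.6 (4.70 to 37.1). Over the 14 higher regions, 9 had more tags at day 4 than at day 2 and 5 had more at day 6.

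Others began high and rose further. In chr3:19960001-20020000 the counts were 547 at day 0, 1320 at day 2, 1883 at day 4 and 1206 at day 6. In chr11:30690001-30780000, which also spanned 90 kb, they were 1187, 2102, 1963 and 1636, and in chr14:28230001-28310000, over 80 kb, they were 1205, 1980, 1805 and 1356. The 3 widest regions were thus highest at day 2, and their day 6 values lay above day 0.

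Both kinds of change were found on all 19 chromosomes. The share of lower windows ran from 0.963% on chromosome 19 to 1.70% on chromosome 17, and that of higher windows from 1.49% on chromosome 5 to 2.52% on chromosome 14. Of 2406 bins of 1 Mb, 1380 held a lower window, 1373 a higher window and 899 both. The largest numbers in a bin were 11 lower and 20 higher windows, and the 62 bins with 10 or more higher windows held 19.2% of all higher windows. A higher region lay within 100 kb of 803 of the lower windows (29.0%, 27.4% to 30.8%) and of 26.8% of the windows with no call, so that the shares were close. In the first 1 Mb after the start of the tags on each chromosome, 3.17% of tested windows were higher (2.41% to 4.08%) and 1.44% lower, and in the last 1 Mb 2.78% were higher (2.04% to 3.69%) and 1.87% lower. The ratio was 1.03 in the first Mb, 1.01 in the last Mb, and 0.963 from 1 to 5 Mb before the end, which is 1.05 under scaling to background windows.

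Stretches where no library held a tag served to look at the edges of sequence to which reads cannot be mapped uniquely, such as young interspersed repeats. There were 22717 such gaps of 1.5 to 9 kb. In the first kb beside them the ratio of day 2 to day 0 was 0.834 (0.825 to 0.843), from 70026 to 58368 tags, and it stayed at 0.912 under scaling to background windows. The ratio was 0.906 at 3 to 4 kb, 0.931 at 6 to 7 kb and 0.953 at 14 to 15 kb. Under scaling to background windows these were 0.991, 1.02 and 1.04, so that a ratio below 1 was kept in the first 4 kb alone. Beside the 6241 gaps of 4 to 9 kb, the range of length of a full endogenous retrovirus or a long LINE, the first kb had a ratio of 0.807 (0.793 to 0.821), and beside the 16476 shorter gaps 0.853 (0.841 to 0.866). The ratio was thus lowest next to the gap. It was lower beside the longer gaps in the first 3 kb, and at 3 to 4 kb it was 0.911 beside the longer and 0.904 beside the shorter gaps. Windows near gaps of 4 to 9 kb made up 3.44% of lower windows (2.79% to 4.18%), 1.26% of windows with no call and 0.388% of higher windows (0.222% to 0.630%). What lies in the gaps was not looked up.

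**Figure D5:**
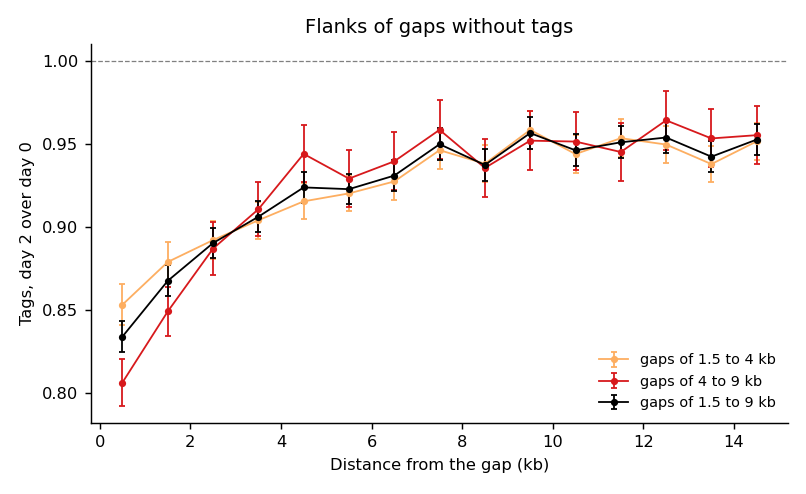
Ratio of tags of the Upstate-type antibody at day 2 over day 0 in bins of 1 kb, by distance in kb from gaps in which none of the 8 libraries held a tag, for gaps of 1.5 to 4 kb (orange), 4 to 9 kb (red) and all of these (black), with 95% counting intervals. The ratio climbs from 0.834 in the first kb to 0.953 at 14 to 15 kb over all gaps.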

How the data were processed

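The authors mapped H3K9me3 ChIP-seq tags uniquely to mm9, brought the libraries of each antibody to an equal number of tags and deposited each tag as an interval of 300 bp, which carry no value, unit, strand or score, so that counts here are counts of deposited intervals. The aligner is not given in the sources used here. Groups follow the antibody and time point of the labels, and 0 columns were set aside. Midpoints were counted per 5-kb window of chromosomes 1 to 19 with scipy 1.17.1, pandas 2.3.3 and numpy 2.4.6 in Python 3.11.15. Windows with at least 20 tags in the 2 libraries together were compared with Fisher's exact test, two-sided, at P below 0.01 and over 1.5-fold. Levels were expressed against the median of windows with a tag (42 Abcam tags, 18 Upstate-type tags). Shares carry exact (Clopper-Pearson) intervals and ratios exact binomial intervals, at 95%. Calls were tested on simulated data. Region names follow a fixed rule on P, fold (with at least 40 tags in the higher library) and width. The comparison, the groups and the rules were chosen with earlier results of these data known. Alternatives were other window sizes, filters, thresholds, scalings, enrichment limits and Abcam lots. Repeats, genes and input libraries were not analysed here.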

Additional observations from a re-analysis of the deposited data

How the results depend on the processing

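All 29 named regions kept their direction and their call under both scalings to low windows. Scaling to windows low with all antibodies, added after the data were seen, gave 7240 higher windows, 57 lower and 4800 higher Upstate-only windows, and ratios of 0.976 for Abcam-enriched windows, 1.29 for Upstate-only windows, 1.03 for domains of 1 window (reversed), 1.31 for domains of 50 kb or more and 0.912 beside gaps, with a day 6 to day 0 ratio of lot 638466 of 0.585 in lower windows. Scaling to windows low with the Abcam lots alone left 3725 windows lower and 3448 higher, so that 48.1% of calls were higher against 59.8%, and gave ratios of 0.883, 1.17, 0.933 and 1.18 for Abcam-enriched windows, Upstate-only windows, domains of 1 window and domains of 50 kb or more.

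In windows of 2 kb, 1494 windows were lower, as were 531 Abcam-enriched and 257 Upstate-only windows, 74.8% of calls were higher, and the ratios in that order of the 4 groups were 0.826, 1.18, 0.920 and 1.22, with concentrated shares of 39.3% at day 0 and 44.0% at day 2. In windows of 10 kb, 2620 windows were higher (42.8% of calls), 56 Abcam-enriched windows were lower and 3 higher, 73 Upstate-only windows were lower and 1379 higher, the ratios were 0.868 for Abcam-enriched windows, 1.04 for domains of up to 10 kb (reversed) and 1.18 for the broad domains, those of lots 58206 and 638466 in lower windows were 0.721 and 0.740, and the concentrated share at day 0 was 35.7%. With windows of 2 kb, the group of narrow domains took in those of 1 or 2 windows. The narrow domains thus differ in width between these settings by construction.

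At least 40 tags left 1283 windows lower and 73.2% of calls higher, a change over 2-fold left 1743 higher and 40.8% of calls higher, and an adjusted P below 0.05 left 457 lower and 1228 higher (72.9% of calls), with ratios of lots 58206 and 638466 of 0.421 and 0.429 in the lower windows. With the limit for Abcam-enriched windows at 2 times the median, 786 were lower and 233 higher with a ratio of 0.930, and at 5 times 33 were lower and 3 higher with 0.872. Chosen with lot 58206 alone, 179 were higher and the ratio was 1.01 (reversed); with lot 638466 alone, 4 were higher and it was 0.779. Chosen with the pooled Upstate-type libraries, 798 were lower and 3232 higher, and the ratio was 1.14 (reversed). With the Upstate-type level from day 4 and day 6, 57 Upstate-only windows were lower and the ratio was 1.19. Domains at 2 times the median had ratios of 0.852 (1 window) and 1.17 (50 kb or more), and those at 5 times 1.09 (reversed) and 1.23. The concentrated shares at day 0 and day 2 were 45.7% and 51.5% at 2 times the median and 24.6% and 34.0% at 5 times, and 38.5% at day 0 for at least 27 tags. Beside gaps of at least 4 kb the ratio was 0.807. Where no construction is named, the cause was not tested.

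With 1 library at each time point, no replicate was left out, and counting error is the only error measured. No paired analysis was possible because each group holds 1 library. The 57.5% of windows with fewer than 20 tags in the 2 libraries together were not tested, and changes there were not detectable under this rule.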

Other observations

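On the X chromosome, which was outside the windows described above, 2789 windows of 5 kb held at least 20 tags in the 2 libraries together. Of these, 15 were lower at day 2 (0.538%, 0.301% to 0.886%) and 132 were higher (4.73%, 3.97% to 5.59%), scaled to the tags of chromosomes 1 to 19. Over the tested windows of chromosomes 1 to 19, these shares were 1.32% and 1.96%. The share of higher calls there grew with the Upstate-type level, and the X chromosome was not compared at equal level.

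Just outside the edges of the domains of 50 kb or more, lot 58206 averaged 27.2 tags per window at day 0 and 33.5 at day 6, while windows 10 kb further out averaged 22.3 and 20.6. The Upstate-type antibody averaged 16.1 tags at day 0 and 16.2 at day 2 in the same outer windows.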
